A study of Rattus norvegicus with 24 samples.

Results

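Primary cardiac fibroblasts from rats aged 20 months were compared after 24 hours in high or normal glucose. The comparison uses 6 of the 24 sequenced samples of the series, chosen by their labels for age and glucose. High glucose means DMEM with 33 mM glucose (3 libraries) and normal glucose means DMEM with 5.5 mM (3 libraries). Both groups were cells of the same stated source, grown in DMEM with fetal bovine serum before the change of glucose. The labels do not give the strain, the sex, the passage number or whether a library is 1 animal. The other 18 samples repeat the 2 glucose levels at 0-3 days, 3-4 weeks and 10-13 weeks of age, with 3 libraries per group. None of the groups held a medium matched in osmolarity, so the sugar itself and the osmolarity of the medium cannot be told apart.

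Cardiac fibroblasts produce the collagen-rich matrix of the heart and can take on a contractile, actin-rich state called the myofibroblast. Cells make cholesterol from acetyl-CoA through the mevalonate pathway. Its genes are switched on together by the SREBP transcription factors when sterol in the endoplasmic reticulum is low, and INSIG proteins hold these factors back when sterol is plentiful. Cells placed in a medium of higher osmolarity take up small organic solutes such as betaine, taurine and neutral amino acids through membrane transporters, several of which are targets of the transcription factor NFAT5.

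At 20 months, high glucose went with a small rise of 10 of 33 cholesterol and fatty acid synthesis genes and of Gclc. Of 13 osmotic response genes 3 rose, among them Slc6a12, which had few counts and changed over 2-fold. High glucose went with a fall of 4 of 35 cell cycle genes and Hmgn2. In a fit that treated equally numbered libraries as culture pairs, 55 genes rose (0.398% of 13806 tested) and 73 fell (0.529%). Genes with an adjusted p (Benjamini-Hochberg, edgeR's quasi-likelihood test) under 0.05 are termed called. The fit without pairs called 0 genes (0%), with 452 at an unadjusted p under 0.05, and DESeq2 without pairs also called 0. Every statement below that a gene rose or fell therefore rests on the pairing, which the labels do not state. Most of the calls were also lost when any 1 pair was left out: without pair 1, 2 or 3 the fit called 13, 73 or 21 genes. Of these, 12, 41 or 16 were also called with all pairs, each time including Idi1, Slc38a2, Fasn, Mcm6 and Hmgn2. The changes were small: the median called gene changed 1.29-fold, and 3 genes changed over 2-fold. These were Slc6a12, described below, and Drp2 and Xkr5, both lower and named after their values were seen. Each of the 128 called genes moved the same way in 3 of 3 pairs, which the paired test favours. Of all tested genes 2472 were higher and 2628 lower in 3 of 3 pairs. The high and normal glucose libraries did not overlap for 33 of the genes that rose and 39 of those that fell, against 9.53% of all tested genes.

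The high glucose libraries held 19484600 to 20583268 counts and the normal glucose libraries 21137687 to 24654286. Mitochondrial genes took 4.58% to 4.86% of counts in high glucose and 4.44% to 4.88% in normal glucose. Markers of fibroblasts summed to 39250, 37960 and 32930 CPM (counts scaled to library size, here by plain totals) in high glucose, against 41510, 38890 and 37010 CPM in normal glucose. Of the 16 fibroblast markers in the table, 15 had counts, led by Col1a1, Col3a1 and Vim, while Col1a2 was listed at 0 in all 6 libraries. Cardiomyocyte markers summed to 56.3 to 74.7 CPM in high glucose and 64.9 to 76.7 CPM in normal glucose, with Ryr2, Mb, Myl2, Myl7 and Ckm at 0. Macrophage and leukocyte markers differed more between numbers than between media, at 237.2, 124.7 and 112.7 CPM in high glucose replicates 1, 2 and 3 against 218.8, 128.3 and 96.7 CPM in normal glucose. In such bulk samples, fewer cells of a type and less RNA per cell cannot be told apart. Nothing in the labels says that replicates are separate animals or cultures, so the p-values measure the spread between these samples, which may be technical.

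In the list of cholesterol and fatty acid synthesis, 33 genes were tested, of which 10 rose and 0 fell. The list, like the others, was chosen with earlier results of these data known. Without pair 1, 2 or 3 the number that rose was 4, 5 or 12. Among the 10 were the mevalonate pathway genes Hmgcs1, Mvd and Idi1, the later sterol enzymes Sqle, Cyp51 and Msmo1, the sterol sensor Insig1, the sterol carrier Stard4, and Fasn, the fatty acid synthase. Over all 33 genes the fitted log2 change was positive in 32, against 6622 of the 13806 tested genes, and its median was 0.22, against -0.01 over all tested genes. All 3 pairs were higher in high glucose for 18 of the 33 genes, against 2472 of all tested genes. The groups were without overlap for 1 of the 33 genes (3.03%), Stard4, against 9.53% of all tested genes. The list was summed per library to 4600, 5838 and 5283 CPM (plain totals) in high glucose, against 3850, 4413 and 4959 CPM in normal glucose.

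The start regions of 3 of these genes are shown because they rose together and share a short motif, the CCAAT box, which the factor NF-Y binds and which is known to occur beside SREBP sites in sterol genes. Each sequence is 300 bases, from 250 bases before to 50 after the annotated start, from RefSeq on the build GRCr8. Capitals mark CCAAT or its reverse complement ATTGG.
Hmgcs1, chr2:53382054-53382353, plus strand: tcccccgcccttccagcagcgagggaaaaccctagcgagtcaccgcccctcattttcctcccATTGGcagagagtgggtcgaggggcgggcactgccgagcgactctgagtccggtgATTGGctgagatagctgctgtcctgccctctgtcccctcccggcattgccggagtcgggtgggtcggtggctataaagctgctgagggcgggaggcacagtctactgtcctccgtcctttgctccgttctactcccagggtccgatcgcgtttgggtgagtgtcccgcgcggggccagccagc
Idi1, chr17:66547475-66547774, minus strand: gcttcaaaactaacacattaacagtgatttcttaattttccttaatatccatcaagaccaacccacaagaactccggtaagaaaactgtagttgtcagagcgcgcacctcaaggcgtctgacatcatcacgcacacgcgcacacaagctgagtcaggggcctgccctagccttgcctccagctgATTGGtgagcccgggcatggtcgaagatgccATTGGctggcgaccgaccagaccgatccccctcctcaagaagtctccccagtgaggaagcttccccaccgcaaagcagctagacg
Insig1, chr4:8057720-8058019, minus strand: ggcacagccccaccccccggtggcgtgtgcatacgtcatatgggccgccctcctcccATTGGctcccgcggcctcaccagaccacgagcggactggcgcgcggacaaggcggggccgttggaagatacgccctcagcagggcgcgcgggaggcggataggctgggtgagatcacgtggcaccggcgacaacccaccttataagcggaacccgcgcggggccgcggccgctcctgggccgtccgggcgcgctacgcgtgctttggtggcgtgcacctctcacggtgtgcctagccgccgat

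The motif began 188 and 133 bases before the start in Hmgcs1, 66 and 35 bases before it in Idi1 and 193 bases before it in Insig1. Of the 33 list genes, 22 matched a start region by symbol, and 18 of these (81.8%) held CCAAT on either strand, against 37.5% of the 33469 start regions of the same length. Of the 10 genes that rose, 6 had a start region and 5 of them held it. The sterol regulatory motif TCACNCCAC was in 0 of the 22 genes and in 1.12% of all start regions. The E-box CACGTG was in 9.09% of the list genes and 6.42% of all start regions. The other motifs searched were TCACNCCAT (9.09% of list genes, 0.717% of all start regions), TCANNCCAC (4.55% and 3.96%), which contains every TCACNCCAC, and CACCCCAC (0% and 2.70%), which can lie inside it. All 6 were searched on both strands. The list's start regions had 64.3% GC on average and all start regions 52.7%. A match describes letters only.

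Idi1, which isomerises the isoprene building block of sterols, had 80.5, 103.6 and 117.1 CPM (by TMM-scaled library sizes, as for single genes from here on) in high glucose replicates 1, 2 and 3, against 62.2, 70.3 and 94.4 CPM in normal glucose. Each high glucose library was above its own partner, while the lowest of them lay below the highest normal glucose library. The log2 change was 0.41 ± 0.056 (SE, n = 3 pairs, edgeR adjusted p = 0.00186). Idi1 (Rnor_6.0 chromosome 17, 57976268 to 57984036) overlaps Wdr37 on the other strand. Wdr37 averaged 294 counts in these libraries against 1774 for Idi1, and without knowledge of strand their shared reads cannot be told apart.

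Hmgcs1, the HMG-CoA synthase early in the pathway, had 244.3, 306.7 and 380.8 CPM in high glucose, against 204.7, 216.6 and 315.3 CPM in normal glucose (log2 change 0.34 ± 0.058, adjusted p = 0.0102). Mvd, the decarboxylase before Idi1, had 58.0, 76.2 and 79.2 CPM, against 47.7, 48.8 and 68.1 CPM (0.38 ± 0.069, adjusted p = 0.0111). In both genes the rise was largest in pair 2. Further down the pathway, the squalene epoxidase Sqle had 138.7, 203.7 and 200.5 CPM in high glucose, against 115.2, 156.0 and 176.7 CPM in normal glucose. Cyp51, the lanosterol demethylase, had 312.1, 390.1 and 360.3 CPM, against 244.6, 278.0 and 314.3 CPM (0.35 ± 0.054, adjusted p = 0.00529). Msmo1, a methylsterol oxidase, had a log2 change of 0.33 and Sqle of 0.28, both with an adjusted p of 0.0111. The last step of cholesterol synthesis, Dhcr7, had 42.1, 63.3 and 50.3 CPM in high glucose against 36.0, 48.7 and 47.1 CPM in normal glucose and was not called (0.23, adjusted p = 0.087).

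Insig1 had 157.5, 246.5 and 200.9 CPM in high glucose, against 113.0, 171.8 and 171.4 CPM in normal glucose (log2 change 0.41 ± 0.062, adjusted p = 0.00413). Stard4, which carries cholesterol between membranes, was low, at 10.8, 13.7 and 11.2 CPM in high glucose against 7.63, 10.6 and 7.95 CPM in normal glucose, with no overlap between the groups (0.45 ± 0.10, adjusted p = 0.039). The transcription factor genes themselves were not called: Srebf1 had a log2 change of 0.02 (adjusted p = 0.942) and Srebf2 of 0.15 (adjusted p = 0.272).

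On the fatty acid side Fasn had 346.5, 464.6 and 443.3 CPM in high glucose, against 273.6, 339.0 and 373.7 CPM in normal glucose (log2 change 0.35 ± 0.050, adjusted p = 0.00274). The citrate lyase Acly had a log2 change of 0.21 (adjusted p = 0.0695) and the carboxylase Acaca one of 0.08 (adjusted p = 0.757). The desaturases were not called either: Scd was at 0.22 (adjusted p = 0.334), Scd2 at 0.23 (adjusted p = 0.402), Fads1 at 0.00 (adjusted p = 0.992) and Fads2 at -0.05 (adjusted p = 0.856), the only member below 0. Per length, the most abundant of the called members detailed here was Cyp51, at 101.3 ± 10.8 FPKM in high glucose and 79.8 ± 9.02 FPKM in normal glucose (SD, n = 3 each). Hmgcs1 was at 92.0 ± 19.2 FPKM in high glucose and 72.7 ± 16.8 FPKM in normal glucose.

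The 3 pairs did not contribute equally. The median log2 ratio of the 33 genes was 0.19 in pair 1, 0.38 in pair 2 and 0.04 in pair 3. In pair 3 several genes that are positive in the fit were below 0, among them Mvk, Lss, Elovl6 and Scd. The called genes stayed above 0, which the paired test favours.

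**Figure D1:**
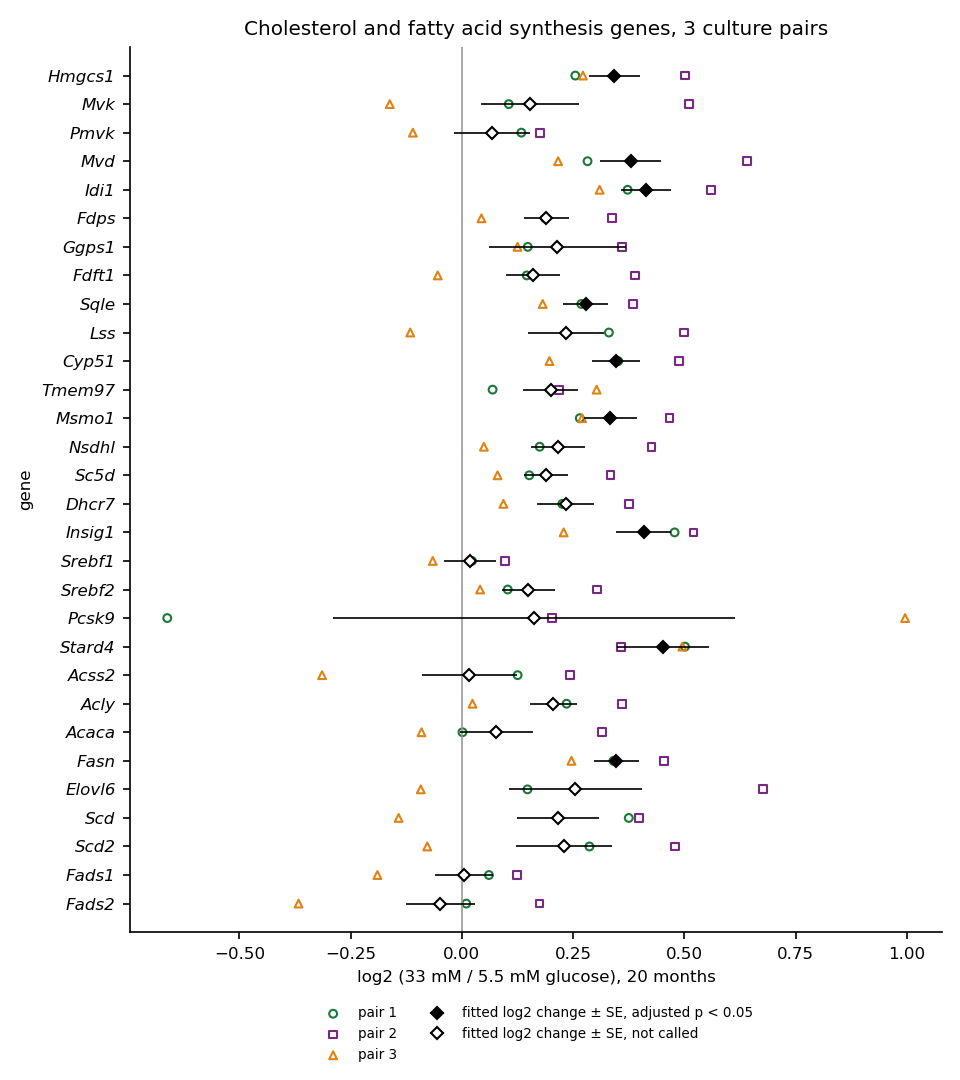
Log2 ratio of high to normal glucose for 30 cholesterol and fatty acid synthesis genes of the 33 tested, with 1 open symbol per culture pair and a diamond for the fitted change ± SE. Filled diamonds mark the 9 called genes drawn, all at 0.28 to 0.45. Squares (pair 2, median 0.38 over the 33 genes) mostly lie to the right and triangles (pair 3, median 0.04) mostly to the left.

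Whether this response differs from that of younger cells was tested as the glucose effect at 20 months minus the mean effect at the 3 younger ages, which share no library with it. With pairs, 10 genes were called higher (0.0724% of those tested) and 1 lower (0.00724%). Of the 10, 9 were members of the synthesis list, among them Fasn, Cyp51, Dhcr7, Insig1, Idi1, Hmgcs1, Mvd and Sqle. The tenth, Aacs, activates acetoacetate for lipid synthesis and had a difference of 0.38. The one lower gene was Enpp3, an ectonucleotide pyrophosphatase. Without the pairing 0 genes were called, with 149 at an unadjusted p under 0.05, and DESeq2 without the pairing also called 0. With the pairing but without pair 1, 2 or 3, 0, 1 or 21 genes were called.

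Fasn had a glucose effect (log2) of 0.35 at 20 months, against -0.03, -0.02 and -0.09 at 0-3 days, 3-4 weeks and 10-13 weeks (difference 0.40 ± 0.058 SE, edgeR adjusted p = 0.0136). Insig1 had 0.41 at 20 months, against -0.08, 0.02 and -0.03 (0.44 ± 0.071, adjusted p = 0.0162). Mvd had 0.38 at 20 months, against -0.03, 0.03 and -0.19, and Hmgcs1 had 0.34, against -0.04, 0.04 and -0.12. Dhcr7 had 0.23 at 20 months, against -0.23, -0.05 and -0.42. Over the 33 genes the median effect was 0.22 at 20 months, against -0.05, -0.02 and -0.16 at the younger ages.

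The younger ages were not alike as a comparator. At 10-13 weeks 11 of the 33 genes fell in high glucose, where 3.48% of all genes fell. Against 10-13 weeks alone the effect at 20 months was higher for 9 of the 33 genes (0.101% of all genes were called higher), and against 0-3 days alone for 6 (0.0652%). Against 3-4 weeks alone edgeR called 0 genes (0%), with 784 of all genes and 20 of the 33 at an unadjusted p under 0.05, although 32 of the 33 differences were positive, with a median of 0.25. With 10-13 weeks left out of the mean, 4 of the 33 genes, among them Cyp51, Fasn and Insig1, were still called higher (0.0435% of all genes). These contrasts were chosen after the data were seen.

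**Figure D2:**
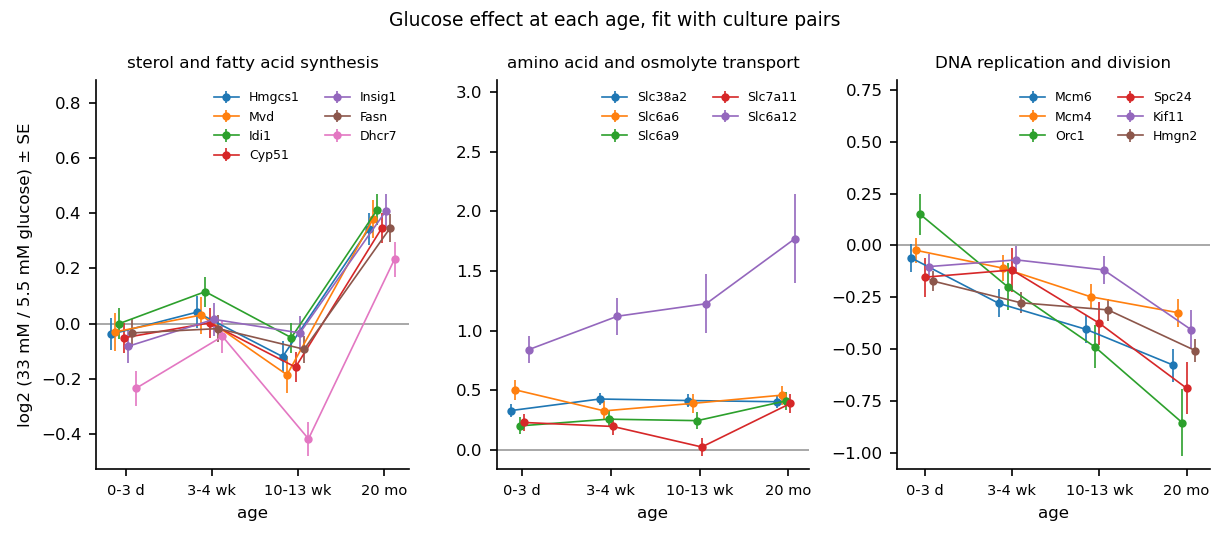
Fitted log2 effect of high against normal glucose ± SE at each of the 4 ages, for synthesis genes (left), transporters (middle) and replication or division genes (right). The 7 synthesis genes lie at 0.23 to 0.41 at 20 months and at 0.12 or lower before, while Slc38a2 lies at 0.33 to 0.42 at every age.

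Of 13 tested genes of the osmotic response list 3 rose and 0 fell, and the median log2 change was 0.11, against -0.01 over all tested genes. Without any 1 pair, 1 of them was called. Slc38a2, a sodium-coupled transporter of small neutral amino acids (ENSRNOG00000006305, Rnor_6.0 chromosome 7, 138088649 to 138100841), had 792.5, 957.0 and 681.7 CPM in high glucose, against 596.4, 764.7 and 491.0 CPM in normal glucose. The pairs moved in parallel, so the groups overlapped although each pair was higher in high glucose (log2 change 0.40 ± 0.052, adjusted p = 0.00139). Slc6a6, the taurine transporter, had 238.7, 249.6 and 295.9 CPM in high glucose, against 183.4, 164.6 and 225.5 CPM in normal glucose, without overlap (0.46 ± 0.080, adjusted p = 0.0132). Slc6a12, the betaine transporter, was near the limit of detection, with 31, 8 and 16 counts in high glucose against 13, 2 and 3 counts in normal glucose. Its log2 change of 1.77 ± 0.38 (adjusted p = 0.0294) rests on these few counts.

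The other members of the list were not called. Nfat5 itself had 170.6, 168.2 and 174.1 CPM in high glucose, against 150.6, 156.0 and 165.9 CPM in normal glucose, without overlap (log2 change 0.12, adjusted p = 0.497). Akr1b1, the aldose reductase that makes the osmolyte sorbitol from glucose, had a change of 0.09 (adjusted p = 0.554). At the 3 younger ages Slc38a2 had glucose effects of 0.33, 0.42 and 0.41 and was called at each. Slc6a6 had 0.50, 0.33 and 0.39 there and Slc6a12 0.84, 1.12 and 1.23. None of the 3 was called in the test against the mean younger effect (Slc38a2 difference 0.01, adjusted p = 0.989, Slc6a6 0.05, adjusted p = 0.966, Slc6a12 0.71, adjusted p = 0.841).

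Of 230 tested carrier genes (symbols starting with Slc, a group formed after the values were seen) 6 rose, Slc38a2, Slc6a6, Slc6a12, Slc6a9, Slc7a11 and Slc7a6, and 2 fell, with a median log2 change of 0.02. Of all tested genes 0.398% rose and 0.529% fell. The 2 that fell were Slc43a2, a carrier of large neutral amino acids, and Slc41a3, each without overlap. Slc43a2 had 12.3, 11.7 and 9.51 CPM in high glucose against 14.6, 16.4 and 13.6 CPM in normal glucose (log2 change -0.41, adjusted p = 0.0413). Slc41a3 had 19.8, 20.1 and 19.8 CPM against 26.1, 26.7 and 26.6 CPM (-0.41, adjusted p = 0.0111). Among those that rose were Slc6a9, the glycine transporter, with 43.9, 33.8 and 22.0 CPM in high glucose against 32.9, 23.3 and 18.4 CPM in normal glucose (log2 change 0.41 ± 0.076, adjusted p = 0.0121), and Slc7a11, the cystine carrier, with 49.4, 47.9 and 51.1 CPM against 38.2, 40.9 and 34.6 CPM (0.39 ± 0.078, adjusted p = 0.0203). Glycine and cysteine, which cells obtain from cystine, are both substrates of glutathione synthesis. Gclc, the catalytic subunit of its rate-limiting enzyme, had 80.8, 93.9 and 114.4 CPM in high glucose, against 56.8, 79.9 and 74.9 CPM in normal glucose, and the groups did not overlap (0.45 ± 0.073, adjusted p = 0.00949). Gclm, the regulatory subunit, was at 17.2, 19.7 and 18.5 CPM against 15.95, 23.6 and 18.6 CPM (-0.06, adjusted p = 0.85). In the oxidative stress list as a whole 2 of 28 genes rose, Gclc and Slc7a11, and 1 fell, Gpx1, a glutathione peroxidase (-0.24, adjusted p = 0.0488). Nqo1, another well-known oxidative stress gene, had 491.8, 726.8 and 968.1 CPM in high glucose against 476.5, 856.7 and 726.0 CPM in normal glucose (0.07, adjusted p = 0.863).

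**Figure D3:**
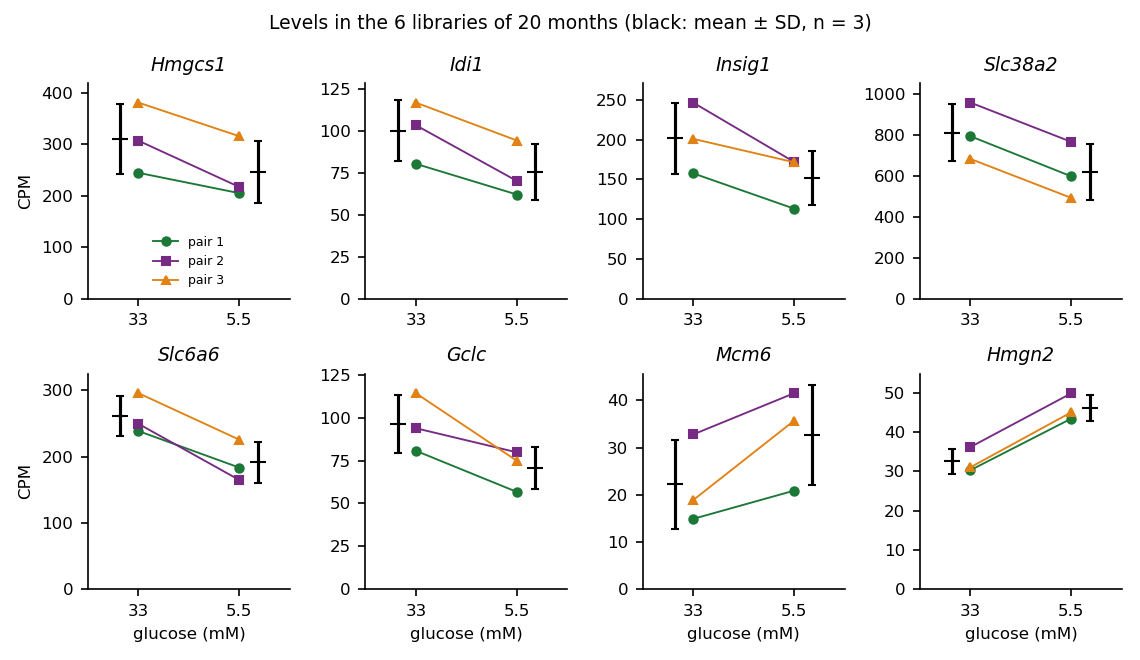
CPM of 8 genes in each library, with high glucose (33 mM) left and normal glucose (5.5 mM) right, lines joining culture pairs and black bars for the mean ± SD (n = 3). In each pair the first 6 genes are higher and Mcm6 and Hmgn2 lower in high glucose, while Hmgcs1, Idi1, Insig1, Slc38a2 and Mcm6 overlap between media.

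Of 35 tested genes of the cell cycle list 4 fell (Mcm6, Mcm4, Ccna2 and Kif11) and 0 rose. The fitted change was positive in 6 of the 35, against 48.0% of all tested genes. The median log2 change was -0.23, against -0.01 over all tested genes. All 3 pairs were lower in high glucose for 17 of the 35 genes, against 2628 of the 13806 tested genes. The groups were without overlap for 0 of the 35 genes (0%), against 9.53% of all tested genes. The median log2 ratio of the list was -0.33 in pair 1, -0.0035 in pair 2 and -0.41 in pair 3. Without pair 2 the list had 10 members lower, and without pair 1 or pair 3 it had 1.

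Mcm6, a subunit of the helicase that opens DNA for replication (Rnor_6.0 chromosome 13, 45042882 to 45068077), had 14.9, 32.8 and 18.9 CPM in high glucose, against 20.9, 41.5 and 35.7 CPM in normal glucose. Both members of pair 2 were the highest of their group (log2 change -0.58 ± 0.080, adjusted p = 0.00249). Mcm4, of the same helicase, had 30.6, 63.3 and 37.6 CPM in high glucose, against 39.2, 68.9 and 53.7 CPM in normal glucose (-0.32, adjusted p = 0.0264). Kif11, the spindle motor, was at 4.41, 9.49 and 5.30 CPM, against 5.76, 12.2 and 7.43 CPM (-0.41, adjusted p = 0.0389). Ccna2, the cyclin of S phase, fell by 0.37 on the log2 scale (adjusted p = 0.0358). It overlaps Exosc9 on the other strand, which averaged 527.3 counts here against 163.8 for Ccna2, so its value is uncertain. The division markers Mki67 and Top2a were not called, at log2 changes of -0.07 (adjusted p = 0.88) and -0.20 (adjusted p = 0.302).

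Other genes of the same processes, outside the list, were among those with the largest falls. Orc1, of the origin recognition complex, had 1.70, 3.40 and 2.54 CPM in high glucose, against 2.61, 5.82 and 5.44 CPM in normal glucose (log2 change -0.85 ± 0.16, adjusted p = 0.0123). Mybl2, a transcription factor of dividing cells, had a change of -0.73 and Spc24, a kinetochore subunit, one of -0.69. Fanca, of the DNA crosslink repair pathway, was at -0.67, but overlaps Zfp276, which had more counts (278.3 against 58.3), on the other strand. Timeless (-0.54), Wdhd1 (-0.51), Mms22l (-0.51), Uhrf1 (-0.46), Pold1 (-0.41) and Rpa1 (-0.24), all known for replication or its repair, also fell and were picked out after their values were seen. At 0-3 days, 3-4 weeks and 10-13 weeks the cell cycle list had medians of -0.07, -0.13 and -0.18. There 0, 1 and 10 of its 35 genes fell, where 0.522%, 0.196% and 3.48% of all genes fell. At 10-13 weeks 1 member rose, and Mcm6, Mcm4, Orc1 and Spc24 were among the genes that fell. No member of the list was called in the test against the mean younger effect.

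Hmgn2, a nucleosome-binding protein, had the smallest adjusted p of all genes. It was at 30.3, 36.2 and 31.1 CPM in high glucose, against 43.5, 49.97 and 45.1 CPM in normal glucose, and the groups did not overlap (log2 change -0.51 ± 0.056, adjusted p = 0.000274). Hmgn2 has many processed copies in mammalian genomes, and how the counting divided reads among them is not given in the sources used here, so the value is uncertain. Its glucose effect was negative at the younger ages too (-0.17, -0.28 and -0.31).

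Of 18 tested contractile genes of the myofibroblast 1 fell, Tpm1, a tropomyosin, with 914.9, 847.9 and 954.4 CPM in high glucose against 1119, 920.9 and 1166 CPM in normal glucose (log2 change -0.23, adjusted p = 0.0303). The fitted change was negative in all 18, with a median of -0.13, and 12 were lower in 3 of 3 pairs. Acta2, the smooth muscle actin that defines the myofibroblast, had 4179, 4114 and 4628 CPM in high glucose against 4888, 4779 and 5206 CPM in normal glucose. These groups did not overlap, yet the gene missed the threshold (-0.20 ± 0.064, adjusted p = 0.151). It was called when the 20 months libraries were fitted alone (adjusted p = 0.0246). At the younger ages the list's medians were -0.07, -0.03 and 0.08, and the list's difference between ages was not tested. Ppp1r14a, an inhibitor of myosin phosphatase in smooth muscle, fell too, with 16.2, 15.9 and 13.8 CPM against 20.8, 23.6 and 22.0 CPM (-0.53 ± 0.081, adjusted p = 0.00435). Smtn, a smooth muscle cytoskeletal gene, rose (0.24, adjusted p = 0.0294). It is 1 of 11 tested markers of smooth muscle and pericytes, of which 9 had a negative change (median -0.17) and no other was called. These markers summed to 505.2, 324.1 and 577.3 CPM in high glucose against 516.0, 337.3 and 567.6 CPM in normal glucose, and their part in these changes was not tested.

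None of 17 tested collagens was called by edgeR (4 at an unadjusted p under 0.05, median log2 change -0.06, 7 lower in 3 of 3 pairs). Col1a1 had 19400, 19550 and 17710 CPM in high glucose against 20730, 19610 and 19420 CPM in normal glucose (-0.08, adjusted p = 0.502), and Col3a1 8767, 8672 and 6574 CPM against 9125, 8722 and 8500 CPM (-0.15, adjusted p = 0.426). Postn was at -0.02, Fn1 at 0.06, Tgfb1 at 0.05 and Ctgf at 0.07, none of them called. Spp1, which encodes osteopontin, had 1134, 1250 and 1935 CPM in high glucose against 1051, 1188 and 1536 CPM in normal glucose (0.17, adjusted p = 0.125). Col17a1, a transmembrane collagen outside that list, fell, with 11.7, 12.3 and 11.1 CPM against 17.2, 16.8 and 17.2 CPM, without overlap (-0.54 ± 0.094, adjusted p = 0.0111). Timp3, an inhibitor of matrix proteases, fell with a wide spread, at 16.1, 13.1 and 19.5 CPM against 21.0, 17.8 and 37.4 CPM (-0.60, adjusted p = 0.0115). Angptl2, a secreted glycoprotein, was at 60.4, 61.8 and 52.0 CPM against 79.3, 76.5 and 85.9 CPM (-0.47, adjusted p = 0.00701).

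Classical glucose-sensing genes were not called at 20 months. Txnip, which is induced by glucose through the carbohydrate-response element in many cells, had 225.5, 185.8 and 245.9 CPM in high glucose against 240.5, 176.4 and 251.9 CPM in normal glucose (log2 change -0.02 ± 0.065, adjusted p = 0.951). Its relative Arrdc4 had 17.3, 19.8 and 16.2 CPM against 16.04, 15.6 and 14.1 CPM, without overlap (0.22, adjusted p = 0.341). The younger effects of Txnip were 0.21, 0.23 and 0.27, and the difference of 20 months from their mean was -0.26 (adjusted p = 0.546). Of 17 tested carbohydrate-response targets 1 rose, Fasn, which the synthesis list also holds, and the median was 0.03. None of 26 glycolysis genes and none of 15 genes of the polyol, hexosamine and pentose phosphate routes was called by edgeR (5 and 2 at an unadjusted p under 0.05), with medians of 0.03 and 0.04. Slc2a1, the basal glucose transporter, was at 0.11 (adjusted p = 0.795).

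Of 24 tested genes of the unfolded protein and amino acid stress list 1 fell, Hspa5, the chaperone BiP, with 1019, 1013 and 1204 CPM in high glucose against 1206, 1260 and 1327 CPM in normal glucose, without overlap (log2 change -0.23, adjusted p = 0.0303). The fitted change was positive in 2 of the 24, against 48.0% of all tested genes, with a median of -0.13. Among the remaining lists Klf2, a transcription factor of the immediate early list, fell, with 11.4, 13.2 and 11.7 CPM against 17.6, 16.5 and 18.7 CPM (-0.54, adjusted p = 0.0111), although 21 of the 26 tested genes of that list had a positive change. Igfbp4, which binds insulin-like growth factors, fell (-0.40, adjusted p = 0.0336). Ccng1, a p53 target, rose (0.18, adjusted p = 0.048), as did Skil, an inhibitor of SMAD signalling (0.30, adjusted p = 0.0152), and Cdkn2a was at -0.04 (adjusted p = 0.897). Of 8 alternative fits with the pairing, Ccng1 was called in 2 and Skil in 6.

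**Figure D4:**
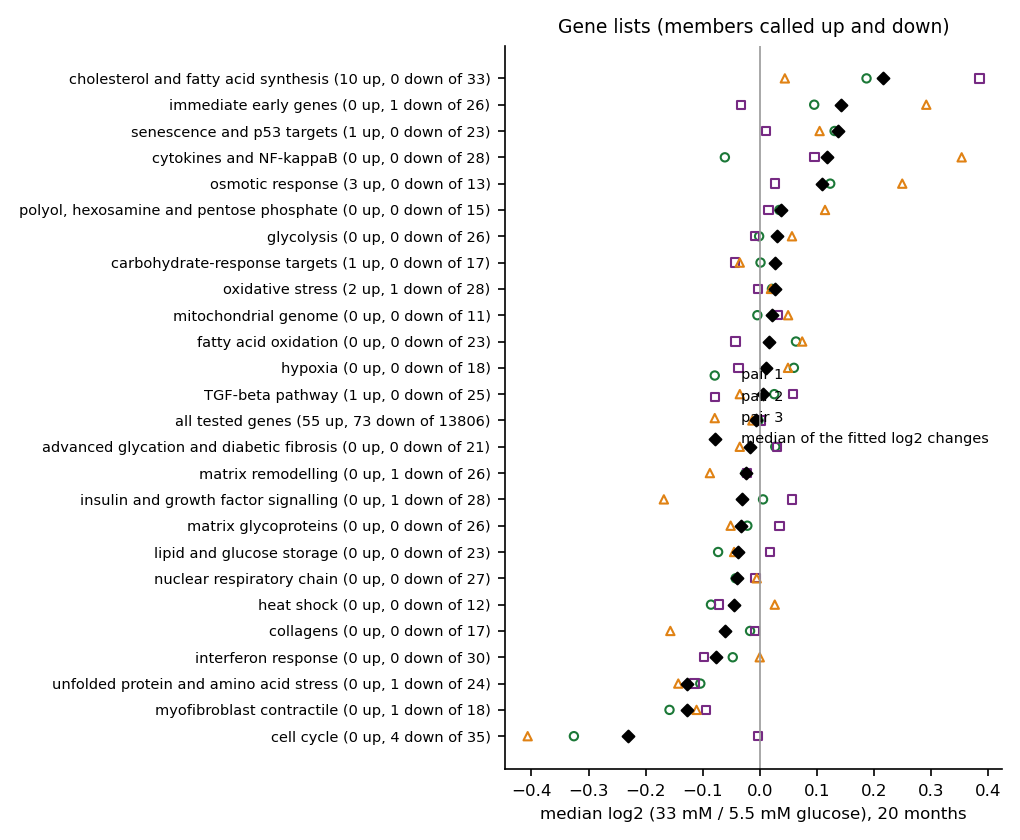
Median log2 ratio of high to normal glucose at 20 months for 25 gene lists and for all tested genes, with 1 open symbol per pair, a diamond for the median of the fitted changes and the members called up and down in brackets. Cholesterol and fatty acid synthesis (0.22) is at the top and the cell cycle (-0.23) at the bottom, and pair 2 of the cell cycle lies at -0.0035.

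Of the remaining genes with the largest rises, Hap1, a huntingtin-binding protein, had 3.93, 2.84 and 3.08 CPM in high glucose against 2.17, 1.10 and 1.86 CPM in normal glucose, without overlap (log2 change 0.96 ± 0.22, adjusted p = 0.043). Ddit4l2 (0.64), Gm17296 (0.54), Eda2r, a receptor of the TNF receptor family (0.46), and Mtmr10 (0.41) also rose. Among the falls, Lyrm7, an assembly factor of respiratory complex III, had 3.51, 3.45 and 4.22 CPM against 6.94, 6.48 and 6.48 CPM, without overlap (-0.83 ± 0.15, adjusted p = 0.0111). Fam71f1 (-0.75), Pyroxd2 (-0.61), Rtn1 (-0.59) and Akr1cl (-0.57) fell as well.

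The 128 called genes were also read at the younger ages, where high and normal glucose were compared in other libraries. Of the 55 that rose, 40, 49 and 45 had a positive change at 0-3 days, 3-4 weeks and 10-13 weeks, and 11, 9 and 29 rose there too, where 0.55%, 0.196% and 4.24% of all genes rose. Fras1, an extracellular matrix protein of basement membranes, rose at 20 months (0.39, adjusted p = 0.0132) but fell at 0-3 days (-0.45, adjusted p = 0.0325). Of the 73 that fell, 66, 71 and 67 had a negative change and 10, 8 and 38 fell there too, where 0.522%, 0.196% and 3.48% of all genes fell. Of all tested genes, 47.1% to 48.5% had a positive change at these ages and 51.5% to 52.9% a negative one. Called the same way at all 4 ages were Slc38a2, Slc6a12, Mtmr10, Acsl4 (an acyl-CoA synthetase) and Amd1 (a polyamine synthesis enzyme), all higher, and Tubb3 (a tubulin), lower. Called at 20 months alone were 24 of the genes that rose and 30 of those that fell. This count does not show that their effects differ between ages.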

How the data were processed

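RNA from cultured rat cardiac fibroblasts was sequenced, and 1 table of the series gives a value per gene and library. The authors deposited whole-number counts without normalization and FPKM values. The FPKM deposited by the authors equal the counts over a fixed length per gene and the library total (within 0.1% for 9023 of 9023 genes checked). HISAT2 2.0.4, StringTie 1.3.0, edgeR and the build Rnor_6.0 are named, without roles, per the submitters' processing notes. The annotation release, strand setting and filters are not given in the sources used here. All 24 libraries matched a count column and 0 columns were left over, and no 2 libraries were identical.

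Counts were fitted in R 4.3.3 with edgeR 4.0.16 (TMM, robust quasi-likelihood, filterByExpr with a minimum count of 10 and total of 15). This left 13806 of 30957 genes, and 11647 had no count. The main design had a mean per group of all 24 libraries. The named alternative added the replicate number within each age as a block. The results are given from it because every correlation of equally numbered libraries was over 0.1. The main design called 0 genes at 20 months. After group means were taken off, equally numbered libraries of 20 months correlated at 0.414 to 0.494 across genes and differently numbered ones at -0.281 to -0.121. Deviations within a group cancel for each gene, so the negative values follow from the positive ones and are no separate evidence of pairs. What equally numbered libraries share was not tested. At the other ages equal numbers correlated at 0.201 or more. The labels do not state the pairing. The SE is the absolute log2 change over the square root of the F statistic. DESeq2 1.42.0, other scalings, no filter and left-out pairs were alternatives. The code was tested on simulated data.

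Members, 25 function lists, 10 marker lists and 6 motifs were chosen with earlier results of these data known. Named were up to 12 called genes per direction by size (mean log2 CPM of at least 1, same direction in 3 of 3 pairs), 5 per direction by adjusted p, 4 per list, fixed genes, and 6 per direction of the test between ages, 63 in all. Where a symbol had several identifiers, lists used the most counted. Slc5a3, a fixed gene, was not analysed here, and some genes that the rule names are not reported here. The other lists (matrix glycoproteins, cytokines, interferon, heat shock, fatty acid oxidation, hypoxia, mitochondrial genome, respiratory chain, glycation, storage) had 0 called members.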

Additional observations from a re-analysis of the deposited data

Results flagged for a closer look

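The glucose effect at 20 months differed from the mean effect at the 3 younger ages for 11 genes in edgeR's test with culture pairs. Among them, the difference (log2) was 0.40 for Fasn, 0.41 for Cyp51, 0.47 for Dhcr7, 0.44 for Insig1, 0.39 for Idi1, 0.38 for Hmgcs1, 0.44 for Mvd, 0.32 for Sqle, 0.38 for Aacs and -0.36 for Enpp3. Enpp3 had 26.3, 33.6 and 41.0 CPM in high glucose against 33.4, 40.2 and 46.6 CPM in normal glucose at 20 months, and its effects at the younger ages were 0.13, 0.07 and 0.11. The first 8 genes named are members of 1 pathway list and are not independent of each other.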

How the results depend on the processing

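Without pairs 0 genes were called for glucose at 20 months and 0 for the difference from the younger ages, and with the replicate block 128 and 11. No other choice without the block made a call. Under the pairing, fitting the 20 months libraries alone called 219 genes (53.9% of them higher, against 43.0%), with 102 shared. RLE scaling called 138, plain totals 138, no filter 116 and DESeq2 125 (91 shared). Leaving out 1 pair, which also leaves fewer samples, called 13 to 73 genes (13 without pair 1, 73 without pair 2, 21 without pair 3). Idi1, Slc38a2, Fasn, Mcm6 and Hmgn2 were called in all of these fits. The synthesis list had 4 to 12 members called without a pair, against 10. The osmotic list had 1 without any 1 pair, against 3. The cell cycle list had 2 from the 20 months libraries alone and 1 to 10 without a pair, against 4. The difference between ages had 21 calls by DESeq2 and 0 to 21 without a pair (0 without pair 1, 1 without pair 2, 21 without pair 3), and its synthesis members numbered 14 by DESeq2 and 0 to 17 without a pair. Without the block, the log2 change of Ccna2 ran from -0.82 without high glucose replicate 2 to 0.0832 without normal glucose replicate 2. Of 63 named genes in 8 alternatives each with the block, 368 values kept their side of the threshold and 130 lost it. Ccng1 and Fanca were called in 2 of the 8 alternatives. Gpx1, Kif11, Ccna2, Slc6a12, Gm17296 and Enpp3 were called in 3. The cause of these shifts, including the part of the smaller number of samples, was not tested. With 3 pairs and changes of about 1.29-fold, a gene that was not called cannot be taken as unaffected.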
